A study of Mus musculus with 6 samples.

Results

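The 10 genes examined here are widely described as direct targets of the transcription factor p53, and they were followed in cultured mouse cerebellar granule neurons (CGNs) treated with the EZH2 inhibitor GSK-126 or with its vehicle. They were given as a list of names, Cdkn1a, Mdm2, Ccng1, Bax, Bbc3, Pmaip1, Sesn1, Phlda3, Eda2r and Trp53inp1, and the rule uses no measured value, although the list was drawn up with earlier results of these data known. The shares of all genes given beside their counts are therefore a background to read them against and not a test. All 10 were found among the 55341 gene symbols of each count table, and all 10 were among the 16343 genes with enough reads to be tested. The libraries were 3 from cultures given DMSO and 3 from cultures given GSK-126, each prepared from poly(A) RNA. GSK-126 is a small molecule that blocks EZH2, the methyltransferase that places the repressive histone mark H3K27me3. Granule neuron progenitors had been purified on Percoll gradients from cerebella of CD1-IGS mice of both sexes at postnatal days 6 to 8. In the study's methods a replicate in culture is neurons from pooled litters. Both groups therefore come from genetically unmodified animals, and in the study's culture protocol both received cytosine arabinoside, which stops the division of non-neuronal cells and is itself an inhibitor of DNA synthesis. The labels give neither a dose nor a day, and they name the cerebellum as the source although the titles name CGNs. The tables' names carry a day code, read here as addition of the inhibitor on the first day in culture, which no label states. The study's methods describe addition on the first day or on a later day, with the same day of harvest for both. The study also reports that high doses of GSK-126 lower the viability of these neurons. The part of such toxicity in the results below was not tested.

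The protein p53, encoded by Trp53, is held at a low level by MDM2, a ubiquitin ligase that marks it for destruction and that is itself a p53 target. DNA damage and other stresses release p53, which then binds paired half-sites near its targets and raises transcription of genes that halt the cell cycle, repair DNA, adjust metabolism or start mitochondrial apoptosis. In granule neurons p53 and the BCL2 family are best known for their part in cell death after DNA damage or loss of survival signals.

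Letters that match the p53 binding element were looked for in the RefSeq promoter windows, because the element is the feature that direct targets share. Each window runs from 250 bases before to 50 bases after a transcription start (GRCm38.p6). The search used 2 copies of the p53 consensus half-site without a spacer, kept the C and G of each half-site core, allowed at most 2 mismatches in 20 bases, and covered both strands because the consensus is its own reverse complement. Windows were matched for 8 of the 10 genes, and 2 of those 8 held a match, both with 1 mismatch. They are shown on the strand of the gene, with the 20-base match in capitals.
Cdkn1a: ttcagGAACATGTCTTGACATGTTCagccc
Ccng1: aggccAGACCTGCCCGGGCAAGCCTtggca
The Cdkn1a match lies at chr17:29090928-29090947 on the plus strand. Its first base is 51 bases before the upstream of the 2 RefSeq starts of the gene and 2841 bases before the downstream one. The Ccng1 match lies at chr11:40755462-40755481, with the gene on the minus strand, and begins 195 bases before the start. Of all 32851 windows, 0.067% held a match with at most 1 mismatch and 0.326% one with at most 2. Counted by gene, 0.437% of the 11454 tested genes with a window held a match with at most 2 mismatches. For Mdm2, Bax, Bbc3, Sesn1, Phlda3 and Eda2r no such run of letters was in the window, which says nothing about the rest of the gene.

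The libraries held from 8058760 to 12047837 counts over genes, with GSK-126 replicate 1 the deepest. Levels are given as CPM (the reads of a gene relative to the library total, with TMM factors), and a gene without reads would have a floor of 3 counts, or 0.249 to 0.372 CPM without that scaling. The comparison was posed as paired by replicate number. No label and no passage of the study's methods says that same-numbered cultures share a pool of litters. Libraries that carry the same replicate number deviated together from their group means, a contrast that is partly arithmetic. Without the pairing 0 of 16343 genes passed an adjusted p-value of 0.05, 0% of those tested, and 981 genes (6%) had an unadjusted p under 0.05 (edgeR).

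In the paired fit, with replicate number as a block, 2 of the 10 p53 targets were called higher under GSK-126 at an adjusted p under 0.05 in edgeR (Cdkn1a and Pmaip1) and 0 were called lower, where 2.23% of all genes tested were called higher and 1.42% lower (3.65% in either direction). DESeq2 and limma-voom with the same block called the same 2 genes. DESeq2 called 3.08% higher and 5.12% in either direction of the 12878 genes to which it gave an adjusted p, fewer genes than the 16343 of edgeR. Limma-voom called 2.25% higher and 3.79% in either direction of 16343 genes. At an unadjusted p under 0.05 the number was 7 of 10, of which 6 were higher, beside 16.7% of all genes in either direction and 9.28% higher. Without the block 0 of 10 were called and 0 of 10 had an unadjusted p under 0.05. The fold changes were close in both fits. The median log2 fold change over the 10 genes was 0.33 with the block and 0.32 without it, beside -0.0020 over all genes tested with the block. Of the 10, 9 had a log2 fold change above 0, as did 49.6% of all genes. The log2 ratio within pairs was positive in all 3 pairs for 7 genes (19.7% of all genes) and negative in all 3 for 1 gene (19.3%). The groups overlapped in CPM for all 10, and 0 of the 10 had groups apart, beside 5.43% of all genes with every GSK-126 library above every DMSO library and 5.44% with every one below.

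**Figure D1:**
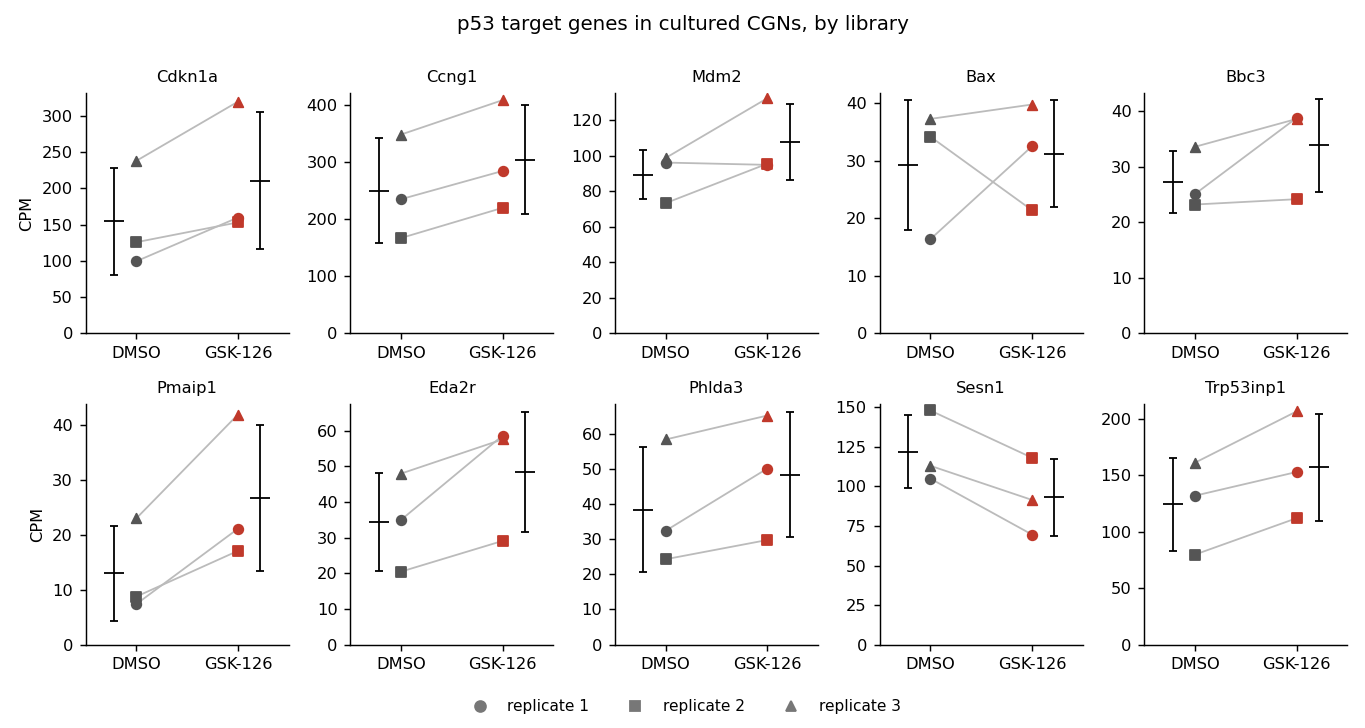
CPM of each of the 10 p53 target genes (y axes, linear from 0) in the 3 DMSO and 3 GSK-126 libraries; lines join libraries of the same replicate number, symbols mark the number, and bars give mean ± SD (n = 3). The lines rise in all 3 pairs for 7 genes and fall in all 3 for Sesn1, and the groups overlap for every gene.

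Markers of granule neurons were present in every library, and so were those of other cells. The summed level of 10 granule neuron markers ran from 4572 to 6541 CPM with DMSO and from 3335 to 5102 CPM with GSK-126, and was lower with GSK-126 in 3 of 3 pairs. Neurod1, Gabra6, Cbln1, Etv1 and Rbfox3 were called lower among these 10. Of the 10, 8 had a log2 fold change below 0 and 2 above, and 1 of those above had an unadjusted p under 0.05 in edgeR. Over all genes tested 2.23% were called higher and 1.42% lower, the shares to read beside every marker count here. A single call in a list of 10 is little beyond them. For 10 fibroblast markers the sum ran from 8447 to 11339 CPM with DMSO and from 11443 to 14211 CPM with GSK-126, and 2 of 10 were called higher (Col1a1 and Fn1). Endothelial and mural markers summed to 502 to 777 CPM with DMSO and 869.9 to 1084 CPM with GSK-126, with 4 of 9 tested called higher (Flt1, Pdgfrb, Cspg4 and Acta2). Of these 9, 7 had a log2 fold change above 0 and 2 below. Microglial markers summed to 357 to 644 and 442 to 891 CPM, with 3 of 10 called higher (C1qb, Ctss and Cd68). Astrocyte markers summed to 2410 to 7267 and 2509 to 7534 CPM with 1 of 10 called higher (Gdf10), and oligodendrocyte markers to 523 to 794 and 584 to 922 CPM with Cspg4 again called. GABAergic neuron markers summed to 221 to 283 and 191 to 217 CPM, with 1 of 8 tested called lower (Slc32a1). No marker in these 7 lists had 0 counts in all libraries. The part of these markers' cells in the results for the p53 targets was not tested. In bulk RNA, fewer cells of a type and less RNA per cell cannot be told apart.

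**Figure D2:**
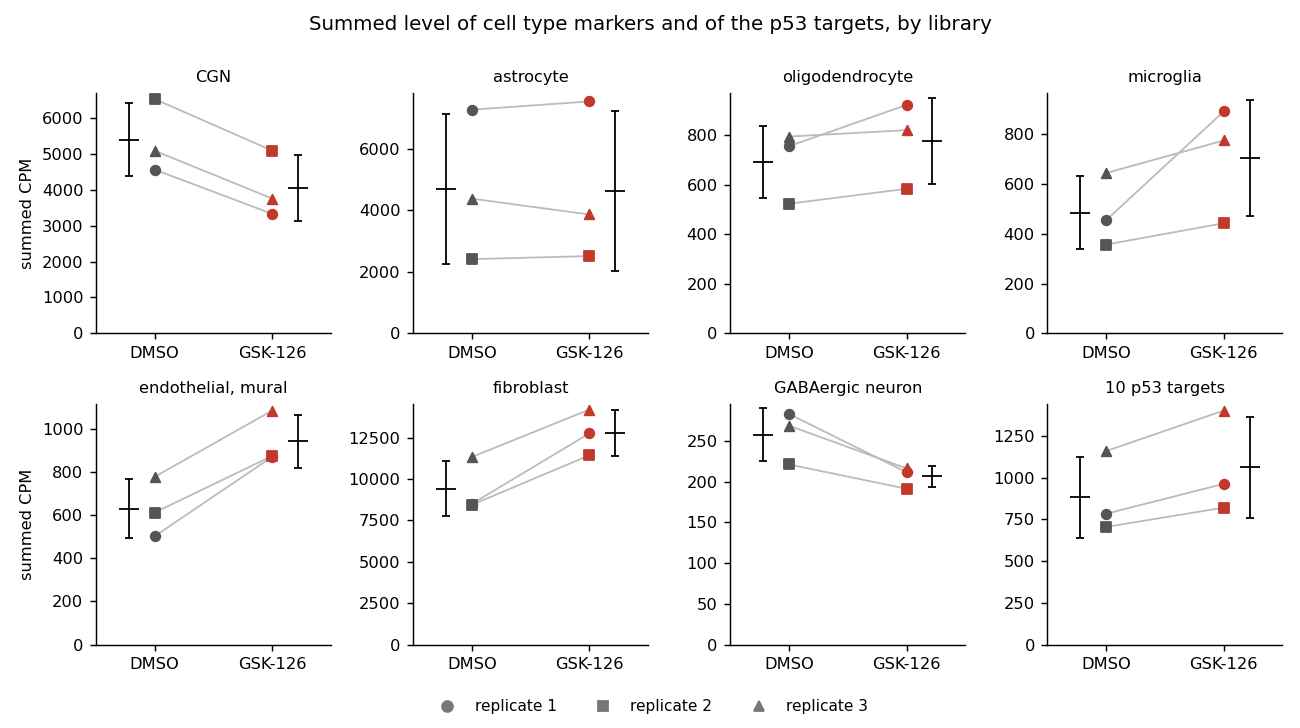
Summed CPM of each cell type marker list and of the 10 p53 targets (y axes, linear from 0) in the 3 DMSO and 3 GSK-126 libraries; lines join libraries with the same replicate number, symbols mark the number, and bars give mean ± SD (n = 3). Granule neuron and GABAergic neuron markers are lower with GSK-126 in every pair, while fibroblast, microglial, oligodendrocyte, endothelial and mural markers and the p53 targets are higher in every pair.

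Cdkn1a encodes p21, the inhibitor of cyclin-dependent kinases through which p53 halts the cell cycle. It had 99.4, 126 and 238 CPM in DMSO replicates 1, 2 and 3 and 160, 153 and 320 CPM in the GSK-126 replicates. Replicate 3 was the highest library of both groups, and its DMSO value lay above replicates 1 and 2 of GSK-126, so that the groups overlapped while each pair rose. The mean was 154 ± 73.6 CPM with DMSO and 211 ± 94.3 CPM with GSK-126 (SD, n = 3 each), and the log2 fold change was 0.46 (SE 0.112, 95% interval 0.22 to 0.71, adjusted p 0.0461 by edgeR), or 1.38-fold. This call lay close to the threshold: the adjusted p was 0.861 without the block, and 0.0605, 0.0877 and 0.200 when pair 1, 2 or 3 was left out. DESeq2 gave an adjusted p of 0.0104 and limma-voom 0.0413. A share of 7.68% of the Cdkn1a exons (GRCm38 chromosome 17, 29090976 to 29100727) overlaps AC167363.2 on the opposite strand. Counts of that gene were 115, 121 and 240 in DMSO cultures and 255, 171 and 295 in GSK-126 cultures, and the strand setting of the counting is not stated, so reads of this stretch cannot be assigned between them.

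Ccng1 (GRCm38, as for the genes that follow, chromosome 11, 40748552 to 40755311) encodes cyclin G1, which binds a phosphatase that acts on MDM2. Its level was 235, 167 and 348 CPM with DMSO and 284, 220 and 408 CPM with GSK-126, in replicates 1, 2 and 3. Every pair was higher with GSK-126, yet the DMSO value of replicate 3 exceeded the GSK-126 values of replicates 1 and 2. Its log2 fold change was 0.30 (SE 0.10, 95% interval 0.081 to 0.52) and did not pass (adjusted p 0.147 by edgeR; 0.893 without the block). Both genes with a match to the p53 element in a promoter window, Cdkn1a and Ccng1, thus had a higher value in 3 of 3 pairs, as had 5 of the 8 others. These 5 were Bbc3, Phlda3 and Eda2r, searched without a match, and Pmaip1 and Trp53inp1, for which no window was available to search.

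Mdm2 (chromosome 10, 117688875 to 117710758), the ligase that closes the negative feedback on p53, had 96.1, 73.3 and 98.7 CPM with DMSO and 94.9, 95.5 and 132 CPM with GSK-126. Pair 1 was level and the other two pairs were higher with GSK-126. Its log2 fold change of 0.26 (SE 0.121, 95% interval -0.0042 to 0.53) did not pass (adjusted p 0.308 by edgeR), and Mdm2 had the smallest spread of the 10 among DMSO libraries, with 1.35-fold between the highest and the lowest.

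Of the apoptosis genes, Pmaip1 on chromosome 18 had the largest fold change of the 10. It encodes NOXA, a BH3-only protein that neutralises MCL1. Its counts were 64, 70 and 195 in the DMSO libraries and 254, 142 and 369 in the GSK-126 libraries, which gave 7.36, 8.73 and 23.0 CPM and 21.1, 17.1 and 41.9 CPM. All pairs were higher with GSK-126, by log2 ratios of 1.49, 0.95 and 0.86, and only DMSO replicate 3 reached into the range of the GSK-126 libraries. The mean rose from 13.0 ± 8.65 to 26.7 ± 13.3 CPM (SD, n = 3 each), a log2 fold change of 1.10 (SE 0.188, 95% interval 0.69 to 1.51, adjusted p 0.0109 by edgeR), or 2.15-fold. Pmaip1 was called in 7 of 8 alternative fits, with log2 fold changes from 0.908 to 1.25 over all 8, and the fit without the block was the exception (1.03, adjusted p 0.825).

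The other two apoptosis genes did not pass. Bbc3 (chromosome 7, 16308393 to 16318205), which encodes the BH3-only protein PUMA, had 25.1, 23.2 and 33.6 CPM with DMSO and 38.8, 24.1 and 38.6 CPM with GSK-126. Its pairs differed in size, with log2 ratios of 0.63, 0.058 and 0.20, and the log2 fold change was 0.30 (SE 0.157, 95% interval -0.043 to 0.65, adjusted p 0.374 by edgeR). Bax (chromosome 7, 45461697 to 45466898), the pore-forming protein of the outer mitochondrial membrane, had 16.3, 34.2 and 37.2 CPM with DMSO and 32.5, 21.4 and 39.7 CPM with GSK-126. Its pairs disagreed in direction, with log2 ratios of 0.98, -0.67 and 0.093, and the log2 fold change of 0.13 had a 95% interval from -0.41 to 0.68 (adjusted p 0.847 by edgeR). Without pair 1 the Bax value was -0.27 (adjusted p 0.507). In the annotation, 12.2% of the Bax exons are shared with Gm45808 on the same strand, which had 0 counts in every library. How reads of the shared stretch were counted is not stated, so the 0 does not show that Bax lost none of them.

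Eda2r (chromosome X, 97333840 to 97377216) encodes a death-domain-lacking receptor of the TNF receptor family that binds the A2 form of ectodysplasin. It had 34.96, 20.4 and 48.0 CPM with DMSO and 58.6, 29.1 and 57.6 CPM with GSK-126. All pairs were higher with GSK-126 and replicate 2 was the lowest library of both groups. On the log2 scale the fold change was 0.50 (SE 0.140, 95% interval 0.20 to 0.81), the second highest of the 10, and the edgeR adjusted p of 0.0789 missed the threshold. It passed only when no filter on low counts was applied (adjusted p 0.0238), and without the block the adjusted p was 0.841.

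Phlda3 and Sesn1 act on growth signalling. Phlda3 (chromosome 1, 135766119 to 135769136), whose product competes with AKT for membrane lipids, had 32.4, 24.3 and 58.4 CPM with DMSO and 50.2, 29.8 and 65.3 CPM with GSK-126. Every pair was higher with GSK-126, and the DMSO values spanned 2.40-fold between replicates against a fitted change of 1.28-fold (log2 0.36, SE 0.138, adjusted p 0.211 by edgeR). Sesn1 (chromosome 10, 41809935 to 41908424) encodes sestrin 1, a brake on the kinase complex mTORC1. It was the 1 gene of the 10 with a negative log2 fold change, with 105, 148 and 113 CPM with DMSO and 69.6, 118 and 91.5 CPM with GSK-126. Every pair was lower with GSK-126, and replicate 2 was the highest library of both groups. The log2 fold change of Sesn1 was -0.41 (SE 0.111, 95% interval -0.65 to -0.16), with an edgeR adjusted p of 0.0737 that passed only without the filter on low counts (0.0321), and of 0.825 without the block.

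Trp53inp1 (chromosome 4, 11156431 to 11174379) encodes a nuclear and autophagy-related protein that promotes p53 activity in stress. It had 132, 79.8 and 161 CPM with DMSO and 153, 112 and 207 CPM with GSK-126. Each pair was higher with GSK-126, with replicate 2 lowest and replicate 3 highest in both groups. Its log2 fold change was 0.35 (SE 0.108, 95% interval 0.12 to 0.59, adjusted p 0.114 by edgeR), it passed when pair 1 was left out (adjusted p 0.0366), and the adjusted p was 0.864 without the block.

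**Figure D3:**
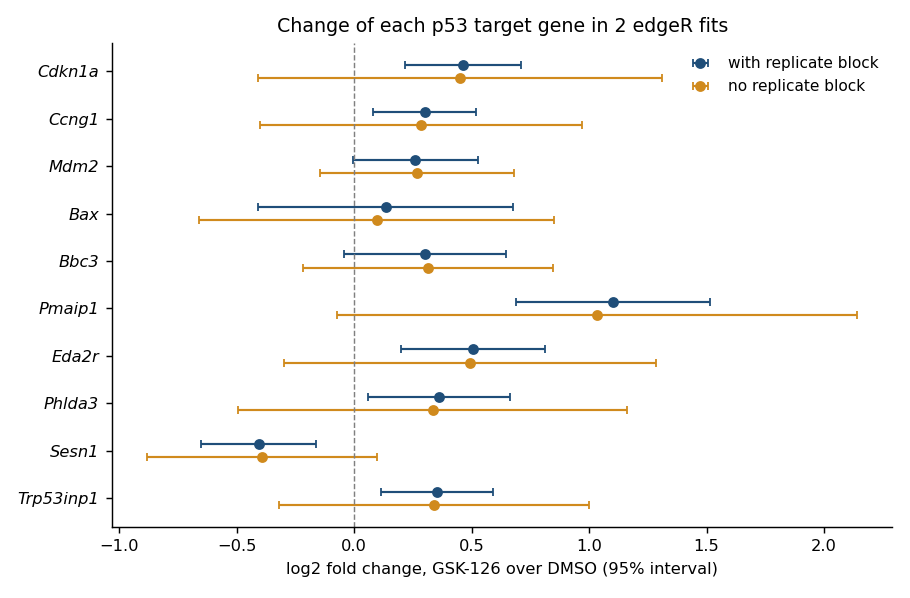
log2 fold change of GSK-126 over DMSO for the 10 p53 target genes (x axis) with 95% intervals, from edgeR with and without the replicate block. The points of both fits lie close together, and the intervals without the block include 0 for every gene, whereas those with the block include 0 for Mdm2, Bax and Bbc3 only.

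For all 10 targets, the highest DMSO library exceeded the lowest by more than the fitted fold change. The share of all genes for which this holds was not computed, so it cannot be read as a trait of these targets. The ratios of highest to lowest ran from 1.35 for Mdm2 to 3.12 for Pmaip1, beside a median of 1.41 over all genes tested. Mdm2, Sesn1 (1.41) and Bbc3 (1.45) lay near that median, and the other targets ran from 2.02 (Trp53inp1) upward. Replicate 3 was the highest DMSO library for 9 of the 10 genes, as it was for 31.4% of all genes, and the highest GSK-126 library for 7 of the 10 (28.5%). Replicate 2 was the lowest DMSO library for 6 of the 10 (34.9%). The summed level of the 10 genes was 784, 705 and 1159 CPM in DMSO replicates 1, 2 and 3 and 963, 820 and 1402 CPM in the GSK-126 replicates. Among the DMSO libraries the microglial, oligodendrocyte and fibroblast marker sums had the same order of replicates as the targets. The fibroblast sums of DMSO replicates 1 and 2 were close (8503 and 8447 CPM). The endothelial and mural, astrocyte, granule neuron and GABAergic sums had other orders. Among the GSK-126 libraries the fibroblast and GABAergic sums had the order of the targets. There the microglial (891, 442 and 775 CPM) and oligodendrocyte sums were highest in replicate 1, and the remaining sums also had other orders. The part of these cells in the order of the replicates was not tested.

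Levels between genes were compared per kilobase of exon, over the union of the annotated exons of a gene. With DMSO the order of the mean level was Ccng1, Cdkn1a, Sesn1, Phlda3, Trp53inp1, Bax, Mdm2, Bbc3, Eda2r and Pmaip1. Ccng1 had 71.2 ± 26.1 and Cdkn1a 43.4 ± 20.7 CPM per kilobase, and Eda2r and Pmaip1 had 5.85 ± 2.34 and 4.77 ± 3.17 (SD, n = 3). The ranges of the 3 libraries overlapped for 8 of the 9 neighbouring pairs in this order, and Bbc3 (12.8 ± 2.61) and Eda2r were the pair that did not overlap. With GSK-126, Sesn1 stood at rank 5 where it had been at rank 3, with 23.4 ± 6.11 CPM per kilobase, behind Phlda3 at 31.1 ± 11.4 and Trp53inp1 at 24.3 ± 7.34. Pmaip1, at 9.77 ± 4.88, stood above Eda2r at 8.22 ± 2.85. Ranges of neighbours again overlapped for 8 of 9 pairs, with Cdkn1a (59.3 ± 26.5) and Phlda3 apart.

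**Figure D4:**
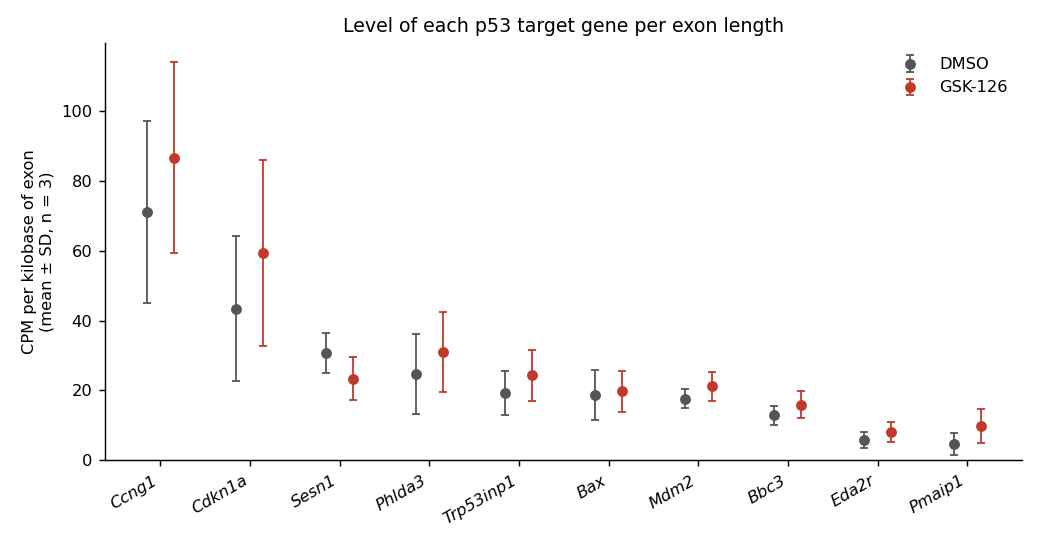
Level of each p53 target gene in CPM per kilobase of exon (y axis, linear from 0) in the DMSO and GSK-126 libraries, as mean ± SD (n = 3 each), ordered by the DMSO mean. Ccng1 and Cdkn1a have the highest means in both groups, and Eda2r and Pmaip1 the lowest.

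The other genes of the pathway were read in the same fit. Among 40 further genes described as direct p53 targets, 1 was called higher and 0 lower, beside 2.23% and 1.42% of all genes tested. The call was Steap3, which encodes a metalloreductase of iron uptake, with 76.0, 31.7 and 59.4 CPM with DMSO and 100.4, 50.6 and 78.8 CPM with GSK-126. Every pair was higher while the groups overlapped, and the log2 fold change was 0.49 (SE 0.118, adjusted p 0.0461 by edgeR; 0.841 without the block, 0.0520 by limma-voom, and 0.186 and 0.184 without pair 2 or 3). DESeq2 called Steap3 and also Perp, a desmosomal protein, which is named after its value was seen (adjusted p 0.0489; edgeR 0.0674). At an unadjusted p under 0.05, 14 of the 40 were higher and 0 lower, beside 9.28% of all genes higher. The median log2 fold change of the 40 was 0.24, and 35 were above 0. Zmat3, which encodes an RNA-binding protein, had a log2 fold change of 0.14 (SE 0.106, adjusted p 0.569 by edgeR), and Gadd45a, a stress sensor, of 0.28 (SE 0.200, adjusted p 0.541), with 19.1% of the Gadd45a exons under a gene of the opposite strand.

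Genes of p53 itself and of proteins that act on it showed no common direction. Trp53 had 55.2, 50.7 and 73.3 CPM with DMSO and 59.9, 48.5 and 65.5 CPM with GSK-126. The groups overlapped and the log2 fold change was -0.036 (SE 0.119, adjusted p 0.924 by edgeR). Mdm4, which holds p53 inactive together with MDM2, had 175, 163 and 155 CPM with DMSO and 123, 154 and 144 CPM with GSK-126. All 3 GSK-126 values of Mdm4 lay under those of DMSO, as in 5.44% of all genes, replicate 2 by a small margin and replicate 1 by the most, with a log2 fold change of -0.24 (SE 0.118, adjusted p 0.350 by edgeR). Of the 23 tested genes of this list, 1 was called higher and 0 lower, beside 2.23% and 1.42% of all genes. At an unadjusted p under 0.05, 2 were higher and 4 lower, beside 9.28% of all genes higher and 16.7% in either direction, and the median log2 fold change was 0.011. Log2 fold changes were above 0 for 12 of the 23 and below 0 for 11. The groups did not overlap for 4 genes higher and 3 genes lower with GSK-126, beside 5.43% and 5.44% of all genes.

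The gene called was Cdkn2a, whose locus encodes p16INK4a, an inhibitor of CDK4 and CDK6, and p19ARF, which restrains MDM2. Its level was 2.65, 5.49 and 10.02 CPM with DMSO and 18.4, 10.7 and 21.7 CPM with GSK-126. The groups did not overlap, as in 5.43% of all genes, and pair 1 differed most. The log2 fold change was 1.56 (SE 0.318, adjusted p 0.0228 by edgeR), the adjusted p was 0.806 without the block, and the gene passed when any 1 pair was left out. The count pools the transcripts of both proteins, so which of them rose is not known from these tables.

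Among 17 tested apoptosis genes beyond the 10 targets (BCL2 family genes, caspases and Cycs, the gene of cytochrome c), 1 was called higher and 0 lower, beside 2.23% and 1.42% of all genes. Hrk, a neuronal BH3-only gene, had 62.2, 44.0 and 39.5 CPM with DMSO and 93.9, 89.1 and 84.2 CPM with GSK-126. The groups did not overlap, and the log2 fold change was 0.90 (SE 0.130, adjusted p 0.00528 by edgeR; 0.465 without the block). It passed when any 1 pair was left out. Bcl2, the founding survival gene of the family, had a log2 fold change of -0.17 (SE 0.174, adjusted p 0.702 by edgeR), and Bak1, the partner of Bax in pore formation, of 0.37 (SE 0.133, adjusted p 0.178). Opposite-strand genes cover 6.09% of the Bcl2 exons and 25.5% of the Bak1 exons. The median log2 fold change of the 17 genes was 0.12.

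A list of 18 genes around p21 held cyclins and their kinases, PCNA, pocket proteins, E2f1 and E2f4, and the related inhibitors Cdkn1b and Cdkn1c. Of these 18, 1 was called higher and 0 lower, beside 2.23% and 1.42% of all genes, with a median log2 fold change of -0.0041. Ccnd2 (cyclin D2) had 186, 185 and 314 CPM with DMSO and 434, 295 and 561 CPM with GSK-126. Replicate 3 with DMSO exceeded replicate 2 with GSK-126, while each pair rose. The log2 fold change was 0.91 (SE 0.120, adjusted p 0.00344 by edgeR; 0.806 without the block), and it passed when any 1 pair was left out. Ccnd1 (cyclin D1) had a log2 fold change of 0.40 (SE 0.125, adjusted p 0.121) and Pcna, the replication clamp to which p21 binds, of 0.088 (SE 0.137, adjusted p 0.813). Opposite-strand genes cover 7.86% of the Ccnd2 exons and 23.4% of the Ccnd1 exons.

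Many cell cycle genes are known to be lowered by p53 through p21 and the DREAM repressor complex. Of 19 such genes 0 were called in either direction by edgeR, DESeq2 or limma-voom, beside 3.65% of all genes tested in edgeR. A list of 19 would hold few calls at that share, so 0 calls says little about this list. Of the 19, 0 had an unadjusted p under 0.05 in edgeR, beside 16.7% of all genes. Their log2 fold changes ran from -0.37 to 0.34 with a median of 0.017. Mki67, the marker of dividing cells, had 116, 65.6 and 62.3 CPM with DMSO and 119, 85.4 and 69.1 CPM with GSK-126. These values overlapped (log2 fold change 0.19, SE 0.114, adjusted p 0.452 by edgeR). Of 8 paralogues of the p53 targets and genes of the Eda2r pathway, 5 had enough reads. Of these 5, 0 were called by edgeR, DESeq2 or limma-voom and 0 had an unadjusted p under 0.05, beside the same shares of all genes, and 5 genes are too few to read against them.

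**Figure D5:**
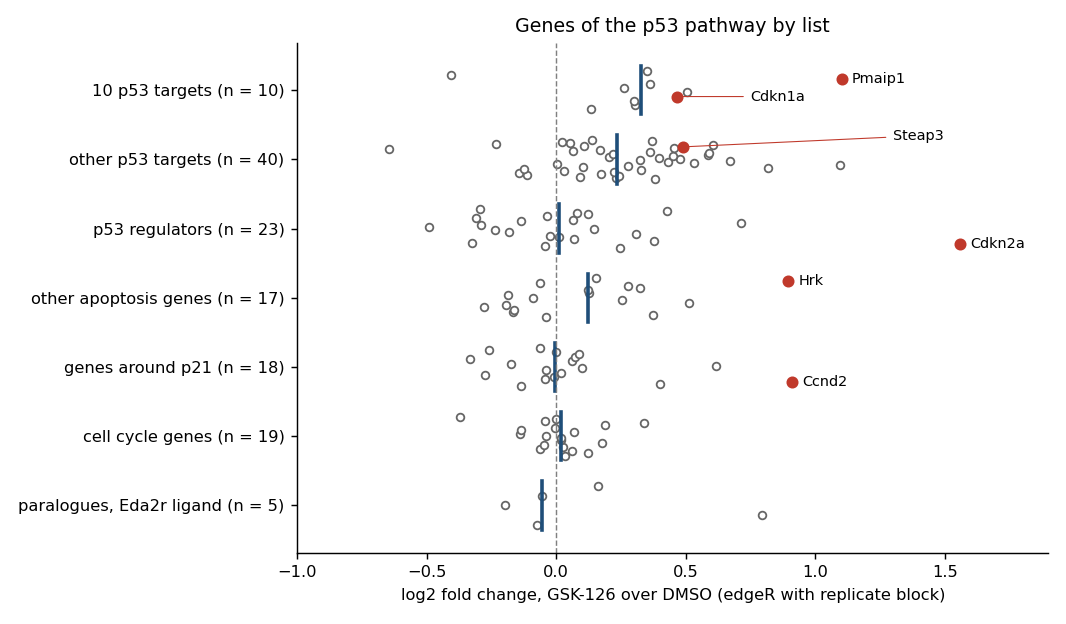
log2 fold change of GSK-126 over DMSO (x axis, edgeR with the replicate block) for every tested gene of each p53 pathway list (rows); filled points passed an adjusted p of 0.05 and are named, vertical bars are list medians, and the dashed line is the median of all genes tested. The medians of the 10 targets (0.33) and of the other p53 targets (0.24) lie to the right of the dashed line, and those of the cell cycle genes (0.017) and of the list around p21 (-0.0041) lie close to it.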

How the data were processed

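Per the labels and the study's methods, poly(A) RNA was sequenced as 150-base paired ends, and reads were processed with FastQC, Trimmomatic 0.38 and STAR 2.7.2b on mm10 (GRCm38). The authors deposited raw HTSeq counts over exons, 1 table per library, without normalization; the strand setting is not given in the sources used here. The 5 summary rows, among them reads over no annotated exon (44.8% to 46.7% of fragments), were left out. All 55341 symbols matched GENCODE M21, which gave coordinates and union exon lengths.

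Genes were filtered with filterByExpr by group, scaled with TMM factors and fitted in edgeR 4.0.16 (glmQLFit and glmQLFTest, legacy=TRUE, robust=FALSE, R 4.3.3) with treatment and replicate number as terms. Benjamini-Hochberg adjustment ran over 16343 genes, and calls are at an adjusted p of 0.05. SEs were taken as the log2 fold change over the root of F. Fits were tested on simulated counts. These counts were drawn with a replicate effect shared by both groups, so they cannot bear on the choice of pairing. CPM use TMM factors, and log2 ratios within pairs a prior count of 2.

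Deviations of same-numbered libraries from their group means correlated by 0.35, 0.50 and 0.52, against -0.41 to -0.010 for other combinations. The deviations of the 3 libraries of a group sum to 0, so positive values for same numbers push the others below 0. That contrast is therefore partly arithmetic. Replicates are pooled litters, and the numbers were taken to pair the libraries, although no source states that the same number means the same pool. The study's methods name DESeq2 and state no model terms. The pairing was set by the question posed, with the knowledge that it raises the number of calls. Members and lists were chosen with earlier results of these data known. Alternatives were no block, RLE size factors, no filter, DESeq2 1.42.0, limma-voom (limma 3.58.1) and each pair left out. All 10 targets, every called gene of the other lists and 10 preset genes are named. The element search was planned over a wider stretch of sequence and was run on the RefSeq windows (GRCm38.p6) only. Floors cover counting error only.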

Additional observations from a re-analysis of the deposited data

How the results depend on the processing

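Without the replicate block the calls over all genes fell from 365 higher and 232 lower to 0 and 0 (981 genes had an unadjusted p under 0.05), and the calls among the p53 targets, the other p53 targets, the p53 regulators, the apoptosis genes and the list around p21 all became 0. Without the filter on low counts, 28842 genes were tested, of which 708 were called higher and 428 lower. In that fit 3 of the 10 p53 targets were called higher (Cdkn1a, Pmaip1 and Eda2r) and 1 lower (Sesn1). Calls in the other lists changed to 9 other p53 targets higher, 1 p53 regulator lower and 3 genes of the list around p21 higher. The cause was not tested. DESeq2 called 2 other p53 targets higher and limma-voom 0. With 1 pair left out, 16491 to 16630 genes were tested, and calls over all genes ran from 125 to 396 higher and from 53 to 308 lower. Calls ran from 1 to 2 among the p53 targets, from 0 to 1 among the other p53 targets, and from 1 to 2 among the p53 regulators and the list around p21. The lowest counts came without pair 2, for which 125 genes were higher and 53 lower, and without pair 3 the counts were 211 and 148. Without pair 1 the targets called were Pmaip1 and Trp53inp1, and without pair 2 or pair 3 Pmaip1 alone. The median log2 fold change of the 10 targets stayed between 0.32 and 0.42 over the 8 alternatives. Of the 80 values of single targets over the alternatives, 71 kept direction and side of the threshold, 5 lost the call, 3 gained it, and 1 changed sign, which was Bax without pair 1 (its values without 1 pair ran from -0.27 to 0.54). RLE size factors changed no call of the targets. Depth was from 8058760 to 12047837 counts a library, and the lowest DMSO count of a called target was 64 (Pmaip1).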
